A study of Potamopyrgus antipodarum with 6 samples.

Results

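Some 100 bp windows carried a heavy methylation signal in all pools of snails, defined here as a mean raw count of at least 150 over the 6 pools. Of the 739509 windows of the reference, 5962 (0.806%) passed, which is 2.69% of the 221751 windows with at least 1 count. They cover 596200 bp. The values that chose them are the counts themselves, so their levels are given as a description and without a test. Counts came from MeDIP-seq, in which sheared and denatured DNA is pulled down with an antibody against methylated cytosine and the captured fragments are sequenced.

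The DNA came from thin slices of the foot pad of Potamopyrgus antipodarum, the New Zealand mud snail, collected in the wild from invasive populations of parthenogenetic, asexual females. Lake 2 was Lake Washington, a habitat with no current, and River 1 was the main channel of the Snake River, with fast current. Each site gave 3 pools of separate snails, nominally 10 snails per pool by the labels, and the study added snails where DNA yield was low. Before dissection, the snails of both sites were kept for several days at 14 °C with 12 h of light, and the study describes the tissue as that of adults. Pools are named by their number in the deposited table, 4 to 6 for Lake 2 and 7 to 9 for River 1. The numbers of the River 1 pools differ between labels, so they name a column only. The sites also differed in geography and collection, and these differences cannot be told apart from habitat. No cell type could be checked, since DNA capture has no marker genes.

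In molluscs, DNA methylation is mosaic. It lies mainly in the bodies of genes that are expressed in many tissues, and long unmethylated tracts separate the methylated ones. A MeDIP count rises with the number of methylated CpG sites in a fragment, and also with the number of copies of a sequence in the genome that map to one place in the reference. No library of DNA without antibody capture was analysed here, so heavy methylation and high copy number cannot be told apart. Reads from near-identical copies share their source, and the part of such copies was not tested. The reference is a transcriptome whose contigs were joined end to end with empty stretches between them, so coordinates are positions on that joined sequence and no chromosome or intron is known. Windows are named here by their first base.

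The heavy windows held 29.6% of all counts of the 6 pools. Their median mean count was 197, against 4.33 for all windows with a count. Summed counts per pool ran from 3317802 (pool 8) to 4994212 (pool 4). The share of a pool's counts that fell in heavy windows was 26.5% in pool 4, 29.7% in pool 5 and 30.7% in pool 6 of Lake 2. In River 1 it was 30.3% in pool 7, 33.2% in pool 8 and 28.7% in pool 9. The 95% Wilson intervals were 26.5 to 26.5% in pool 4 and 33.2 to 33.3% in pool 8. They treat all counts as independent, although adjacent windows share reads, so they are too narrow even for counting error. The order of the 6 pools by this share was the exact reverse of their order by summed counts, and pools of both sites alternated along it. The shares of Lake 2 and River 1 overlapped.

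The counts in heavy windows differed less between pools than the summed counts did. The mean count per heavy window was 222, 207 and 197 in pools 4, 5 and 6 and 200.3, 185 and 212 in pools 7, 8 and 9. Pool 4 had 1.22 times the average summed count but 1.09 times the average count in heavy windows, whereas pool 8 had 0.808 times and 0.907 times. Pool 4 was the highest of the 6 in 3813 windows and pool 8 the lowest in 3894.

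**Figure D1:**
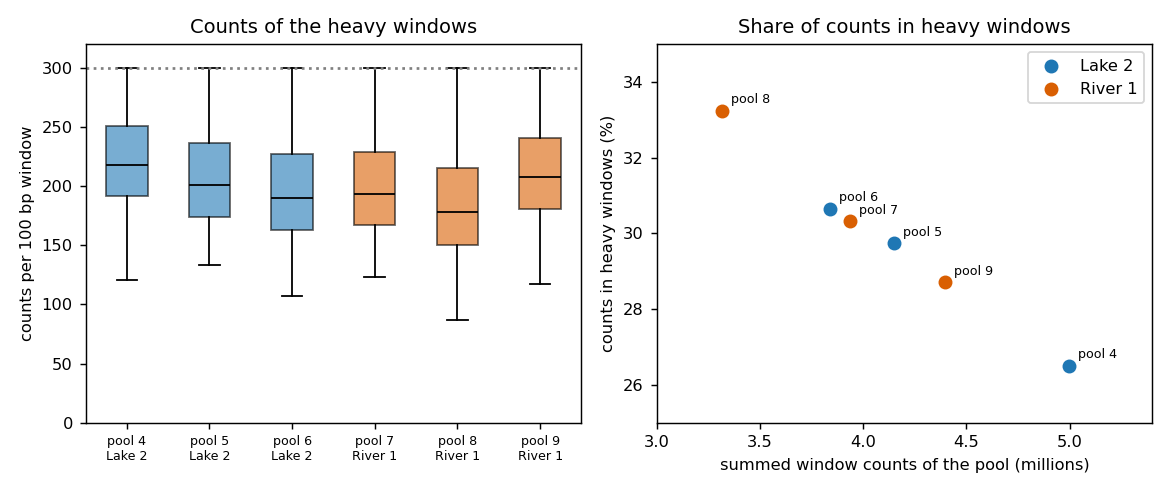
Left, counts of the 5962 heavy windows in each pool (box, quartiles with the median; whiskers, lowest and highest; dotted line, 300 counts). Right, percent of a pool's counts in heavy windows against its summed counts, 1 point per pool. Pool 8 has the smallest total and the largest share (33.2%), pool 4 the largest total and the smallest share (26.5%).

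No window of the table exceeded 300 counts in any pool, and the step that set this ceiling is not given in the sources used here. Within the heavy windows, exactly 300 counts were reached in 29 windows of pool 4, 17 of pool 5 and 12 of pool 6. In River 1 this held for 19 windows of pool 7, 9 of pool 8 and 20 of pool 9. In all, 40 windows were at 300 in at least 1 pool, 61 were at 290 or more in all 6 pools, and 5 were at 300 in all 6. At the low end, 4243 windows (71.2%) were at 150 or more in every single pool. Only 12 had a pool below 100, and the lowest single count was 87, in pool 8.

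The threshold fell within a continuous range of counts. The lowest heavy windows, each with a mean of exactly 150, were 5992301, with 158, 153 and 117 counts in the lake pools and 152, 142 and 178 in the river pools, 6129501, with 182, 152 and 123 against 158, 125 and 160, and 17240401, with 173, 167 and 129 against 151, 122 and 158. Just outside it, 31697201 held 148, 151 and 138 counts in the lake pools and 149, 162 and 151 in the river pools. Window 42834301 held 155, 149 and 152 against 153, 129 and 161, and 43146901 held 171, 151 and 150 against 145, 106 and 176. The windows on either side of the threshold overlapped in pools 4, 7, 8 and 9 and not in pools 5 and 6.

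The 5 windows at 300 counts in all 6 pools lay in 3 separate stretches of the joined reference. Windows 30764301 and 30764401 adjoined each other in a stretch of 5 windows between 30764101 and 30764600, whose end windows held mean counts of 116 and 147. Windows 48578501 and 48578601 lay in another stretch of 5 windows, of which 4 were heavy. Window 3704401 lay in a stretch of 15 windows with 10 heavy ones, in which the mean count rose from 89.8 to 287 over 1 window. At a count of 300, none of these windows can show a difference between pools.

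Heavy windows came mostly in runs. The 5962 windows formed 2396 runs of adjacent windows with a median of 2 and a mean of 2.49 windows. Single windows made up 950 runs (39.6%), but runs of at least 2 windows held 84.1% of the heavy windows and the 278 runs of at least 5 held 32.0%. Only 35 runs reached 10 windows. Longer runs were also higher, with a median mean count of 171 in single windows, 187 in runs of 2, 203 in runs of 3 and 219 in runs of at least 5. Adjacent windows share reads, and a longer peak is both wider and higher at a fixed threshold, so run length and level are not independent measures.

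**Figure D2:**
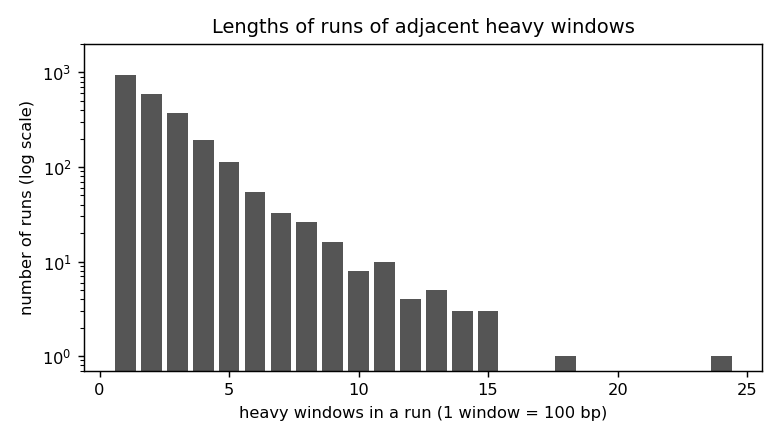
Number of runs (log axis) against run length in windows of 100 bp. Counts fall from 950 single windows to 35 runs of 10 or more, and the longest run spans 24 windows.

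Most ends of runs were followed by a window that still held counts. Of 4792 run ends, 44.9% were followed by a window with a mean count of 100 to under 150 and 33.2% by one of 50 to under 100. In 16.5% the next window held 10 to under 50 and in 4.80% above 0 to under 10, and only 33 ends (0.689%) were followed by an empty window. Adjacent windows share reads, so counts in the next window are not independent of the run and do not show where methylation ends.

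Contigs were approximated here by stretches of the joined reference separated by at least 9 windows without a count, which gave 42150 stretches. A stretch can join neighbouring contigs, as around 3172701, or split a contig at a gap without counts. A contig number here names a stretch by the contig that the study lists in it. Of the stretches, 2235 (5.30%) held a heavy window. A stretch with heavy windows had a median length of 7 windows, against 5 for the others. In 831 stretches there was 1 heavy window, in 305 there were at least 5 and in 46 at least 10. The heavy part was a median of 30.0% of the stretch, exceeded 50% in 342 stretches and in 0 of them covered all windows. The 15117 windows that were not heavy but lay in the same stretches had a median mean count of 15.0, against 3.17 in stretches with no heavy window. The first or last window of a stretch was rarely heavy, at 32 windows or 0.537% of the heavy ones. Of all windows of the stretches, 34.3% were first or last. The ends of a stretch adjoin empty windows by definition. Low counts there, and the lack of a stretch with all windows heavy, therefore follow at least in part from how stretches were delimited.

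The longest run covered nearly all of contig 00068, from 162701 to 165100, with 24 heavy windows of the 26 in its stretch. Its mean count was 253, 245 and 231 in pools 4, 5 and 6 and 246, 261 and 264 in pools 7, 8 and 9. The 6 profiles ran in parallel. The second window held 294, 294 and 288 counts in the lake pools and 295, 295 and 299 in the river pools, and all pools then dipped and recovered along the contig. The lowest window of the run, 2000 bp from its start, held 181, 161 and 164 counts in the lake pools and 169, 197 and 193 in the river pools, and the pools of the sites overlapped there. Pool 8 stood among the highest pools over most of this run, in contrast to its place as the lowest pool in most heavy windows.

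**Figure D3:**
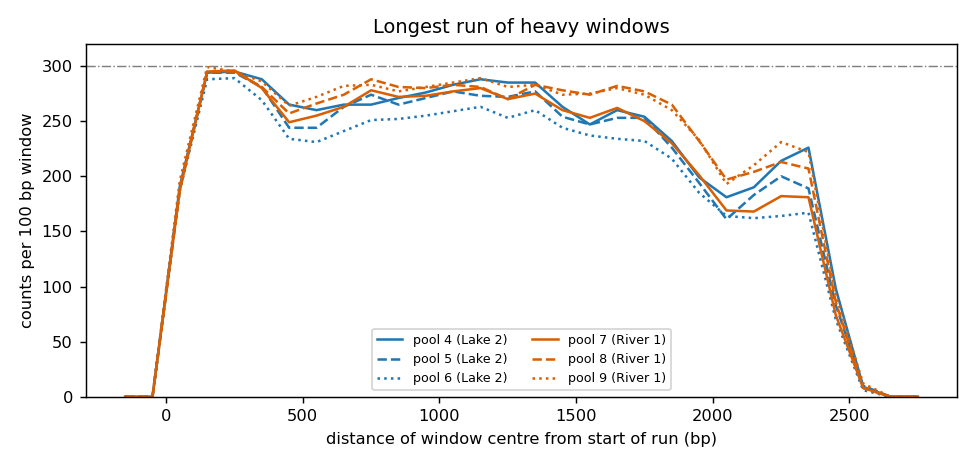
Counts per 100 bp window along the run of 24 heavy windows, against the distance of the window centre from the start of the run, for the 3 pools of Lake 2 (blue) and the 3 of River 1 (orange). All 6 pools rise to between 288 and 299 counts in the second window, dip at about 2000 bp and fall to 98 counts or fewer just after the run.

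The next longest run, of 18 windows from 5765201 to 5767000, had a mean count of 268, 254 and 248 in the lake pools and 248, 232 and 253 in the river pools. A run of 15 windows from 184401 to 185900 had 253, 234 and 229 against 220.3, 204 and 223, and here every Lake 2 pool was above every River 1 pool in raw counts. Runs of the same length stood at 564501 to 566000, with 229.9, 216 and 189 against 211, 202 and 237, and at 5821401 to 5822900, with 231, 223 and 203 against 214, 192 and 223. In both, the sites overlapped.

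The stretch with the most heavy windows, from 2231901 to 2239900, bears the number of contig 01044 and may join neighbouring contigs. It held 26 heavy windows of 80, in 7 separate runs with a mean count of 181. In its heavy windows the pools averaged 213, 190.0 and 176 counts in the lake pools and 173, 149 and 187 in the river pools. Contig 00472, from 1054401 to 1057200, held 19 heavy windows of 28 in 3 runs, and the stretch from 129501 to 133700 held 19 of 42 in 5 runs. Such interrupted patterns were the exception, since 141 stretches had more than 1 run. The 100 stretches with the most heavy windows held 17.4% of all heavy windows.

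The raw spread among the 3 pools of a site fell as counts approached the ceiling. The variance of 3 counts divided by their mean has an average of 1 and a median of 0.693 when only sampling noise is present. In the heavy windows the median was 0.836 in Lake 2 and 1.23 in River 1, and the mean was 1.31 and 1.79. With counts scaled to the mean total the medians were 1.43 and 1.57. In raw counts the median fell with the level, from 1.43 in Lake 2 and 1.86 in River 1 at mean counts of 150 to 175, through 0.688 and 1.07 at 225 to 250, to 0.0080 and 0.021 at 290 to 300. From a mean of 250 upward, the raw counts of both sites therefore spread less than independent counts would. The median difference between the highest and the lowest of the 6 pools fell from 49 counts in the lowest class to 7 in the highest.

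**Figure D4:**
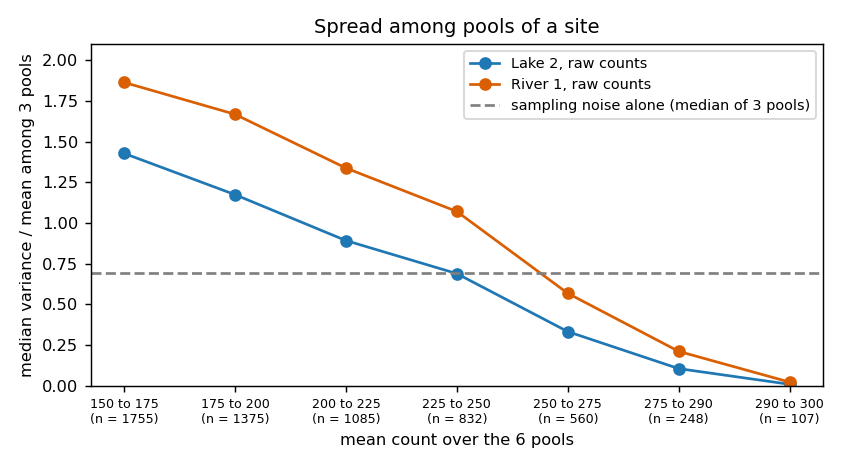
Median over heavy windows of the variance divided by the mean among the 3 pools of a site, against the mean count of the window (n, windows in the class). Dashed line, the median that sampling noise alone gives for 3 pools. The ratio falls from 1.43 (Lake 2) and 1.86 (River 1) to 0.0080 and 0.021 at 290 to 300 counts.

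Scaling the counts to the mean total turned this trend round. The median ratio then rose from 0.835 in Lake 2 and 1.00 in River 1 at 150 to 175 counts to 4.65 and 6.00 at 290 to 300. The raw counts differed less between pools than the totals did, and least near the ceiling. The summed counts of pools 4 and 8 differed by 0.59 on the log2 scale, whereas their counts in heavy windows differed by a median of 0.37 at 150 to 175 and of 0.02 at 290 to 300. The order of the Lake 2 totals, pool 4 above 5 above 6, was repeated in 67.4% of the heavy windows. In River 1, 60.5% repeated the order of pool 9 above 7 above 8. With 1 pool left out, sampling noise alone gives a median ratio of 0.455 for the other 2. In Lake 2 the ratio was 0.232 when pool 4 was left out, 1.33 when pool 5 was and 0.473 when pool 6 was. In River 1 it was 1.72 when pool 7 was left out, 0.346 when pool 8 was and 0.743 when pool 9 was.

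The 3 windows with the largest spread in Lake 2 did not follow the order of the totals. The largest spread in Lake 2 was in window 38243001, with 129, 230 and 213 counts in the lake pools and 159, 217 and 226 in the river pools. Window 33587601 held 132, 230 and 215 against 167, 209 and 241, and 49230701 held 140, 240 and 219 against 171, 214 and 235. These lay in 3 separate stretches, and in all of these windows pool 4 was lowest and pool 7 next lowest. Pool 4, the deepest, was the lowest pool in 39 heavy windows on 31 stretches, and pool 7 came next in 16 of these, on 11 stretches.

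In River 1, the largest spread came from low counts in pool 8. Window 3178301 held 234, 202 and 203 counts in the lake pools and 196, 129 and 223 in the river pools, and its neighbour 3178401 held 230, 189 and 190 against 199, 122 and 202. Window 12999901, in another stretch, held 240, 191 and 182 against 181, 116 and 201. Pool 8 was conversely the highest pool in 142 heavy windows on 61 stretches.

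Across the heavy windows, counts of 2 pools had Pearson correlations between 0.77 (pools 4 and 8) and 0.97 (pools 5 and 7), given as a description over 5962 windows that share contigs and libraries. The highest value joined pools of different sites. Within a site the values were 0.91 to 0.96.

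Stability between sites was read in pools that had no part in the choice. Windows with a mean of at least 150 in Lake 2 alone numbered 6359, of which 84.7% were also at 150 or more in River 1 and 99.9% at 100 or more. Of the 5560 chosen on River 1 alone, 96.8% were at 150 or more in Lake 2. After scaling to the mean total the shares were 94.4% and 87.2%, in the opposite order, and the cause of the gap was not tested. When 5 pools chose the windows and the sixth was read, 99.3% were at 150 or more in pool 4, 97.2% in pool 5 and 86.6% in pool 6. The shares were 91.9% in pool 7, 71.9% in pool 8 and 96.8% in pool 9.

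Both sites reached a mean of 150 in 5384 of the 5962 heavy windows, Lake 2 alone did in 493 and River 1 alone in 85. The lowest mean of a site in any heavy window was 123. The table held 0 windows with a mean of at least 150 at one site and under 50 at the other.

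Differences between sites in the heavy windows were then tested with edgeR's quasi-likelihood test (TMM normalization), fitted on the 151608 windows whose 6 counts summed to 10 or more. Log2 fold changes are River 1 minus Lake 2. The rule used the mean over both sites and not this contrast, but a high mean near a ceiling limits how far the sites can differ. At the study's threshold of an unadjusted p-value of 1e-05, 0 of 5962 heavy windows were called, against 0.147% of all windows tested. At an adjusted p-value of 0.05, 5 were called (0.0839%), against 1.42% of all windows tested, and all 5 were higher in River 1, for which the background was 0.305% (0 higher in Lake 2, background 1.11%). At an unadjusted p-value of 0.05, 415 (6.96%) passed, against 14.3%. Of these, 374 were higher in River 1 (6.27%, background 5.26%) and 41 in Lake 2 (0.688%, background 9.01%). The DESeq2 Wald test called 0 heavy windows at an adjusted p-value of 0.05 (background 0.00660%), with 364 (6.11%) at an unadjusted p-value of 0.05 (background 4.64%).

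The fitted differences were small. The median log2 fold change was 0.11, against -0.01 over all windows tested, and the range was -0.46 to 0.60. In 89.5% of heavy windows it lay within 0.25 of 0, against 39.8% of all windows tested. The median standard error of the fit was 0.14, against 0.40. It takes no account of the ceiling, and it was 0.14 as well in windows at 300 counts in every pool. It therefore does not show how precisely methylation was measured. The share called rose and then fell with the level, from 0.277% of the 79451 windows with a mean under 10, to 3.11% of windows with a mean of 10 to 50 and 3.09% of those of 50 to 100, through 0.689% at 100 to 150, to 0.160% at 150 to 200 and 0 above. The ceiling narrows what can be seen at the top of this range. At a mean of 275 counts, the largest raw log2 ratio between sites that a maximum of 300 permits is 0.26, to which TMM scaling adds 0.18 where River 1 is higher. The smallest absolute log2 fold change called at 1e-05 in any window was 0.73. Every window called at 1e-05 had a mean of 117 or less. A lack of calls above that level does not show that methylation was equal.

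The direction of the differences turned with the scaling. In raw counts the mean of Lake 2 was 209 and that of River 1 199, and Lake 2 was higher in 72.4% of the heavy windows. Raw counts of the sites did not overlap in 1234 windows (20.7%), against 13.0% of all windows tested, and Lake 2 was higher in 1126 of them (18.9%, background 11.0%) and River 1 in 108 (1.81%, background 1.97%). After TMM scaling, 695 windows (11.7%) did not overlap, against 18.6% of all tested. River 1 was then higher in 595 (9.98%, background 7.74%) and Lake 2 in 100 (1.68%, background 10.9%). The windows at 300 counts in all 6 pools show the arithmetic, since their raw counts were identical and their fitted log2 fold change was 0.18. Without any scaling the median of the heavy windows was -0.06 and that of all windows -0.18, so relative to all windows it was 0.12 in both fits. That relative value was 0.02 without pool 4 and 0.03 without pool 8, but 0.20 without pool 6 and 0.23 without pool 9. It was 0.07 on an occupancy scale, the negative natural log of the share of the ceiling that a count leaves free.

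**Figure D5:**
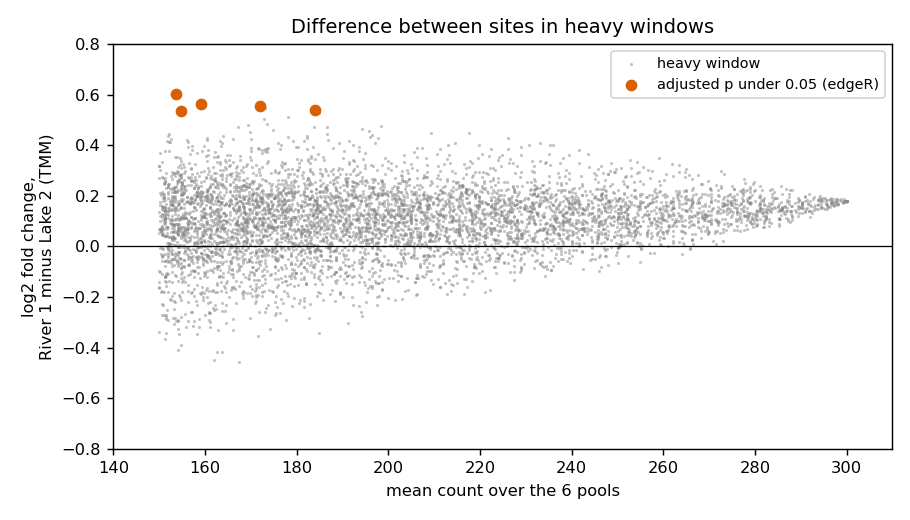
Log2 fold change (River 1 minus Lake 2, after TMM scaling) of each heavy window against its mean count. The 5 windows with an adjusted p-value under 0.05 (edgeR quasi-likelihood test) have values of 0.54 to 0.60 and means under 200, and the cloud narrows to 0.18 at 300 counts.

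The 5 called windows lay at the low end of the heavy range on 5 contigs. Window 71982501 on contig 50303 held 143, 133 and 119 counts in Lake 2 (132 ± 12.1, SD, n = 3) against 148, 184 and 195 for the river (176 ± 24.6). Its log2 fold change was 0.60 with a standard error of 0.15 (edgeR adjusted p = 0.0232). Every River 1 pool was above every Lake 2 pool in raw counts.

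Window 46242001 on contig 31212 held 193, 158 and 133 counts in the lake pools and 181, 193 and 246 in the river pools, with a log2 fold change of 0.54 ± 0.14 (SE, edgeR adjusted p = 0.0293). Window 17177301 on contig 09717 held 148, 150 and 107 against 165, 138 and 220 (0.54 ± 0.14, edgeR adjusted p = 0.0343). In both, the raw counts of the sites overlapped.

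Window 1056101 on contig 00472 held 144, 151 and 120 counts against 150, 187 and 203, with a log2 fold change of 0.56 ± 0.15 (SE, edgeR adjusted p = 0.0371). Window 30976501 on contig 19039 held 162, 162 and 127 against 158, 207 and 216 (0.55 ± 0.15, edgeR adjusted p = 0.0417). The sites overlapped by a few counts in each, since pool 7 was just below pool 5. In all 5 windows pool 6 was lowest, and pool 9 was highest. The other heavy windows of these contigs leaned the same way, with median log2 fold changes of 0.24 to 0.40, and adjacent windows share reads.

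These calls depended on which pools were kept, as did the calls over all windows. The count of heavy windows was 0 without pool 4 and 0 without pool 6, 1 without pool 8 and 2 without pool 9. It was 7 without pool 5 and 9 without pool 7. Over all windows, 492, 306, 684 and 449 were called without pools 4, 6, 8 and 9, against 2152 with all pools. Without pools 5 and 7 these were 2773 and 5110. DESeq2 called 0 heavy windows and 10 of all windows. Unscaled counts gave 0 heavy windows and 0 of all windows. None of the 5 windows had an adjusted p-value below 0.05 in each fit without 1 pool. The next 5 contigs by p-value held windows with log2 fold changes of 0.47 to 0.55 and edgeR adjusted p-values of 0.0519 to 0.0684, all with River 1 higher. Among them, window 44397401 on contig 29689 held 160, 173 and 140 counts against 197, 194 and 204, with no overlap of the sites.

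Some windows had the same scaled level at both sites. Window 55144601 held 184, 167 and 161 counts against 143, 133 and 179, window 38646701 held 170, 169 and 152 against 138, 142 and 154, and 5089201 held 197, 178 and 151 against 150, 124 and 194. Their fitted log2 fold changes were 0 to 2 decimals, although the raw mean of Lake 2 was higher in all of them.

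The fitted differences varied both between and within the longest runs. On contig 00068 the median log2 fold change of the 24 windows was 0.27, with a smallest edgeR adjusted p = 0.171. There, 10 windows had an unadjusted edgeR p-value under 0.05, as did 6.96% of heavy windows and 14.3% of all windows tested. These windows are adjacent and share reads, so they are not separate results. The run from 564501 had a median of 0.22, the runs from 5765201 and 5821401 had 0.10 and 0.11, and the run from 184401 had 0.03. Values ran from 0.19 to 0.39 on contig 00068 and from 0.05 to 0.32 in the run from 564501. They ran from 0.02 to 0.16, -0.02 to 0.24 and -0.14 to 0.11 in those from 5765201, 5821401 and 184401. Contig 01044, with the most heavy windows, had a median of -0.02 and a range of -0.23 to 0.39. None of these runs held a window called at an adjusted p-value of 0.05, and contig 00472 held 1.

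Gene names were available only for contigs that the study had listed for differing between sites, in part on these same pools, and the names came from sequence matches in other species. They are therefore a selected set and no independent evidence of direction. Of 302 stretches with a gene name, 21 (6.95%) held a heavy window. Stretches were grouped by a word in the study's category, so metabolism takes in metabolism and transport. Heavy windows were on 8 of 18 stretches with the word epigenetic (44.4%), 1 of 36 with translation (2.78%) and 3 of 52 with metabolism (5.77%). Several others of the 21 were of unknown category. Of the 8, 4 bear the single name LOC105888664, and contig 01858 is also listed under transcription and receptor. Shares of the other categories are not given here, and a difference between categories was not tested. Contigs under one name may hold near-identical copies that share reads, and their counts are uncertain for that reason.

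The name LOC105888664, in the epigenetic category, stood on 4 contigs, and all 4 carried heavy windows. On contig 01167, 11 of 13 windows were heavy, and the highest, 2479601, held 290, 280 and 272 counts in the lake pools and 281, 285 and 297 in the river pools. On contig 24351 the highest, 37794601, held 260.0, 244 and 214 against 246, 274 and 278. On contig 31212 window 46241801 held 247, 235 and 204 against 240.0, 267 and 269. Window 32523201 on contig 20083 held 233, 219 and 187 against 226, 255 and 254.

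In all 4 of these windows pool 6 was lowest, and pools 8 and 9 were among the higher ones although pool 8 had the smallest total. The sites overlapped in raw counts in each. Median log2 fold changes of the heavy windows were 0.24, 0.35, 0.40 and 0.32 on contigs 01167, 24351, 31212 and 20083, and 1 window, 46242001 on contig 31212, was called. Medians of 0.31 were found on other contigs of the category, namely contig 11982 (LOC106177743), whose highest window 20631601 held 281, 271 and 257 counts against 279, 288 and 289, and contig 03864 (LOC105320412 and neighbouring names), whose window 7512301 held 288, 259 and 240.0 against 271, 288 and 289. On contig 03324 (LOC103291109) the highest window, 6552801, held 287, 274 and 278 counts against 269, 246 and 263, and the median was 0.12. Contig 01858, the eighth of the category, had a median of -0.08 over 2 heavy windows.

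Other named contigs spanned the heavy range, and their raw counts leaned both ways. The highest window of any named contig was 1364201 on contig 00619 (LOC101848543), with 291, 293 and 289 counts against 287, 277 and 277. There, every Lake 2 pool was above every River 1 pool in raw counts, as in 18.9% of heavy windows and 11.0% of all tested. Contig 00392 (LOC101853885), of the translation category, had 9 heavy windows, and its window 880701 held 281, 279 and 261 counts against 282, 277 and 293. The window 61115001 on contig 42111, named for naxd, which repairs damaged nicotinamide cofactors, and inpp4b, a phosphoinositide phosphatase, held 223, 215 and 211 counts against 218, 224 and 246. Contig 04192, named gas2l2, a gene of the cytoskeleton, held 262, 246 and 245 counts against 243, 212 and 240.0 in window 8083401. After TMM scaling, median log2 fold changes of the heavy windows were 0.13, 0.22, 0.24 and 0.02 on contigs 00619, 00392, 42111 and 04192.

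Lower values in River 1 came with a few names. Window 18722301 on contig 10718, matched to BMP5, a secreted bone morphogenetic protein, held 220.0, 213 and 201 counts in the lake pools and 167, 146 and 198 in the river pools. The 3 heavy windows of that contig had a median log2 fold change of -0.26. Window 31359401 on contig 19294 (cno) held 224, 191 and 197 against 145, 126 and 162 (log2 fold change -0.33), and window 10370601 on contig 05518 (LOC101850811) held 225, 196 and 188 against 173, 124 and 152 (-0.26). Raw counts of the sites did not overlap in these 3 windows, and none was called at an adjusted p-value of 0.05 by edgeR. Such raw separation with Lake 2 higher was common, in 18.9% of heavy windows and 11.0% of all windows tested. After TMM scaling it held in 1.68% of heavy windows.

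The remaining named contigs held 1 or 2 heavy windows each. Contig 01858, added after its values were seen because it fell outside the 20 named contigs, was matched to several names including a transfer RNA gene. Its window 3846601 held 203, 169 and 167 counts against 155, 126 and 163, and its log2 fold change was -0.10. In the highest windows of the others, contig 38434 (LOC107029121) had 278, 268 and 266 counts against 259, 248 and 252, and contig 02872 (LOC101168232) had 221, 211 and 204 against 206, 181 and 193. Contig 37657 (LOC107190651) had 200, 190 and 188 against 201, 201 and 210.0, and contig 16052 (LOC107280826) had 191, 161 and 143 against 157, 162 and 188. In the stretch around 3172701, matched to a transfer RNA gene, the window held 165, 166 and 159 counts against 166, 174 and 180.0. The fitted log2 fold changes of these 5 windows, contig 01858 left out, were 0.04 to 0.26.

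Some well known names had no heavy window. Stretches matched to the mitochondrial genes COX1, ATP8 or ND3, subunits of the respiratory chain and of ATP synthase, held 0 heavy windows among 9 stretches, and their highest window had a mean of 98.8. Stretches matched to atp5a1, DDOST, HSPA8 (a chaperone), RAB11B (a vesicle trafficking protein), SMAD3 (a signal transducer of TGF-beta) or sox2 (a transcription factor) held 0 among 6, with a highest window of 112. Among all named stretches 6.95% held a heavy window, so a count of 0 in so few stretches does not set these names apart. They were chosen for their names, and their levels were not compared by a test.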

How the data were processed

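MeDIP-seq reads of 6 pools were aligned by the authors with Bowtie2 at default settings to a joined P. antipodarum transcriptome, sorted with SAMtools and counted in 100 bp windows with MEDIPS. The deposited values used here are raw counts per window without normalization. How the authors treated duplicate reads is not given in the sources used here. The deposited RPKM columns (6 further columns of single pools), the authors' means and their columns of fold changes and p-values from their own comparison of the sites were not used. Bowtie2 by default reports 1 place for a read with several equal matches, so near-identical copies split reads.

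The members and lists were chosen with earlier results of these data known. Named regions were the 3 windows on either side of the threshold, the 5 highest, the 5 longest runs, the 5 richest stretches, the 10 smallest p-values with at most 1 per contig, the 3 largest spreads per site, the 3 smallest differences and the highest window of up to 20 gene-named contigs. Gene names and contig numbers, but no values, came from the study's supplement.

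All 6 pools entered one fit, with site as the only term, in edgeR 4.0.16 (R 4.3.3) with TMM factors, a summed count of at least 10 and Benjamini-Hochberg adjustment over 151608 windows. The test was checked on simulated counts, with a median log2 fold change of 0.963 in changed heavy windows and 0.958 in changed other windows. At the study's p-value threshold it called 100 of 100 changed heavy windows and 17 of 100 changed other windows. False calls numbered 0 in heavy windows and 2 in others. At a mean of 275 counts the ceiling of 300 permits a raw log2 ratio of only 0.26. The check therefore does not show what the test can detect near the ceiling. Replicates are pools of separate snails. Summed counts were 3317802 to 4994212 per pool. MeDIP reads carry no molecular identifiers and adjacent windows share reads, so intervals cover counting error at most and are too narrow for it. Alternatives were DESeq2 1.42.0, edgeR's exact test, other scalings, filters and thresholds, each pool left out, and windows below 250 counts. Unscaled counts were added after seeing the data. Tables were handled in Python 3.11.15 with pandas 2.3.3 and scipy 1.17.1.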

Additional observations from a re-analysis of the deposited data

How the results depend on the processing

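The number of heavy windows was 11330 at a minimum mean of 100 and 2832 at 200, with 4178 and 1248 runs and with 45.6% and 16.4% of all counts, against 5962 windows, 2396 runs and 29.6% at 150. The share of windows chosen on Lake 2 that were also heavy in River 1 was 94.4% with scaled counts and 78.4 to 91.1% with 1 pool left out. For windows chosen on River 1 and read in Lake 2 it was 87.2% with scaled counts and 93.4 to 98.6% with 1 pool left out. The median log2 fold change of heavy windows was -0.062 without scaling and 0.11 with TMM. The number of heavy windows called at an adjusted p-value of 0.05 was 5 with edgeR's quasi-likelihood test, against 2152 of all windows. It was 22 with library size only (1615 of all windows) and 18 with a summed count of at least 1 (3294). It was 8 with edgeR's exact test (2052), 0 with DESeq2 (10) and 0 to 9 with 1 pool left out (306 to 5110). Without scaling it was 0, but that fit called 0 of all windows, so it says nothing about the heavy ones. The 22 and 18 included windows higher in Lake 2, since 18 and 16 of them were higher in River 1. At an unadjusted p-value of 1e-05 the count of heavy windows was 0 in each of these fits, against 1 to 644 of all windows. No paired analysis was run, because the pools hold separate snails from different sites and the labels link no pool of one site to a pool of the other. The self-correlation of adjacent windows, the ceiling of 300 counts and 3 pools per site limit what these tests can show, and near that ceiling differences between pools were not detectable.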

Other observations

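Heavy windows were unevenly placed along the joined reference. When it was divided into 10 equal parts, 3.56% of the windows with a count were heavy in the first, 4.70% in the fifth and 1.10% in the ninth. In the 142 windows where pool 8 was the highest, the log2 fold change between sites ran from 0.17 to 0.55 with a median of 0.31, and the choice of these windows favours that direction.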
